A study of Rattus norvegicus with 12 samples.

Results

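The genes described here are 8 complement and complement regulator genes, C3, C2, Cfb, C1s, Serping1, Cd55, Cd59 and Masp1, chosen by name because Müller cells, the main glia of the retina, are a source of complement in that tissue. All 8 were among the 17315 genes of the count tables, and 6 of them were among the 11321 genes that had enough reads for a test. Cfb and Serping1 did not, and C3 passed only through its reads in the primary cultures. RNA-seq of polyadenylated RNA was done on 12 libraries of cultured rat cells: 5 of SIRMu-1, 3 of rMC-1 and 4 of primary Müller cell cultures (Primary MC).

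SIRMu-1 is a spontaneously immortalized Müller cell line derived from Sprague-Dawley pups of postnatal days 2 to 4. Its libraries came from passages 6, 11, 11, 11 and 20 for replicates 1 to 5, grown with 20% serum. Of the 5, replicates 3 and 5 were grown with gentamicin at 87 mg/L plus amphotericin B at 2.2 mg/L. rMC-1 is a line from adult Sprague-Dawley rats, immortalized with the SV40 large T antigen; its libraries came from passages 23, 26 and 26, with 10% serum and neither drug. The primary cultures came from Sprague-Dawley pups of postnatal days 2 to 4, at passage 4 in replicates 1 and 2 and passage 3 in replicates 3 and 4, with 20% serum and both drugs in all 4. All media held 25 mM glucose and 2 mM glutamine. Each line is 1 line, so its libraries show the spread between cultures of that line. SIRMu-1 and primary cultures share serum level and donor age but differ in passage and immortalization. They also differ in the drugs, except for SIRMu-1 replicates 3 and 5. For rMC-1, serum, passage, donor age and route of immortalization differ from both other groups, and the drugs differ from primary cultures. In each comparison the factors that differ cannot be told apart from the kind of cell.

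Complement is a cascade of plasma and tissue proteins that tags cells and debris and can end in membrane pores. Its classical and lectin arms start with the proteases C1s and MASP-1, which lead to cleavage of C4 and C2; C2 and factor B (Cfb) each supply the protease of a C3 convertase, and C3 is the component on which all arms meet. C1 inhibitor (Serping1) blocks the starting proteases, CD55 speeds the decay of convertases on the cell surface, and CD59 stops assembly of the terminal pore. In the retina, glia, microglia and pigment epithelium are known to make parts of this system locally.

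Depth was 22582345 to 38125630 reads in genes per library, and 3 reads in a library corresponded to 0.0618 to 0.134 CPM (the count divided by library size, on edgeR's TMM scale). The Müller marker list, 12 genes of which 10 were tested, was only partly present. It summed to 3444 to 4474 CPM in SIRMu-1, 1468 to 1549 in rMC-1 and 7237 to 8742 in primary cultures. Most of each sum was Vim, which averaged 3540 CPM in SIRMu-1, 1367 in rMC-1 and 6207 in primary cultures, so the sums mainly describe that gene. Against primary cultures SIRMu-1 was lower for 7 of the 10 and higher for 0 (24.4% and 21.7% of all tested genes). rMC-1 was lower for 6 and higher for 1, Rlbp1 (38.9% and 31.9% of all tested genes). Rlbp1 averaged 0.156, 0.91 and 0.0654 CPM in SIRMu-1, rMC-1 and primary cultures, and entered the test only through rMC-1. Car2, called lower in both lines, had 0 reads in them and entered only through primary libraries. These counts are therefore a description and not support. Glul, the glial glutamine synthetase, averaged 56.7 ± 18.2 CPM in SIRMu-1, 54.8 ± 4.62 in rMC-1 and 143 ± 68.6 in primary cultures (SD, n = 5, 3 and 4), while the water channel gene Aqp4 had 0 reads in both lines and 2 in all primary libraries together. Not past the threshold were Rlbp1, Slc1a3 and Sox9 in SIRMu-1 and Slc1a3, Sox2 and Gfap in rMC-1. In SIRMu-1, rMC-1 and primary cultures Sox9 averaged 71.6, 0.0358 and 52.2 CPM, Sox2 0, 14.9 and 2.49, and Slc1a3 23.0, 55.3 and 34.2. Fibroblast markers, genes of a cell type that also makes complement proteins, summed to 69050 to 93540 CPM in SIRMu-1, 4711 to 6599 in rMC-1 and 72140 to 192900 in primary cultures, and all 9 of that list were tested. Of these 9, SIRMu-1 was lower than primary cultures for 4 and rMC-1 for 9, where 24.4% and 38.9% of all tested genes were called lower. Most of each fibroblast sum was Col1a1, Fn1 and Col3a1. The 4 genes lower in SIRMu-1 were Col3a1, Dcn, Lum and Thy1, and 5 were not past the threshold. Dcn, Lum and Thy1 averaged 4.54, 3.30 and 0.0287 CPM in SIRMu-1 and 681, 162 and 566.5 in primary cultures. Thy1 entered the test only through primary libraries. The 11 microglial markers summed to 169 to 221 CPM in SIRMu-1, 2.37 to 4.16 in rMC-1 and 223 to 443 in primary cultures. Most of these sums in SIRMu-1 and primary cultures was Tmem119, which averaged 184 CPM in SIRMu-1, 0.163 in rMC-1 and 308 in primary cultures. The other 10 summed to 0.899 to 4.41 CPM in SIRMu-1, 2.27 to 3.82 in rMC-1 and 3.89 to 23.5 in primary cultures. The part of these other cells in the results below was not tested, and in bulk RNA fewer cells of a type and less RNA per cell cannot be told apart.

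The first question was how each line compared with the primary cultures. SIRMu-1 was lower for C3, C2, C1s and Cd59, and rMC-1 was lower for C3, C2, Cd59 and Masp1. No tested member was called higher in either line. C3 entered the test through its primary reads, so these counts and medians are a description and not support. Thus 4 of 6 tested members were called in SIRMu-1, where 46.1% of all tested genes were called (24.4% lower), and 4 of 6 in rMC-1, where 70.8% were called (38.9% lower). A gene was called at an edgeR adjusted p under 0.05 over all tested genes. The median log2 fold change of the 6 members was −1.68 in SIRMu-1 and −3.12 in rMC-1, beside −0.02 and −0.15 over all genes tested. The libraries of line and primary cultures did not overlap for 3 of the 6 in SIRMu-1 (35.3% of all tested genes) and for 4 of the 6 in rMC-1 (70.9%). Both comparisons use the same 4 primary libraries and are not independent.

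**Figure D1:**
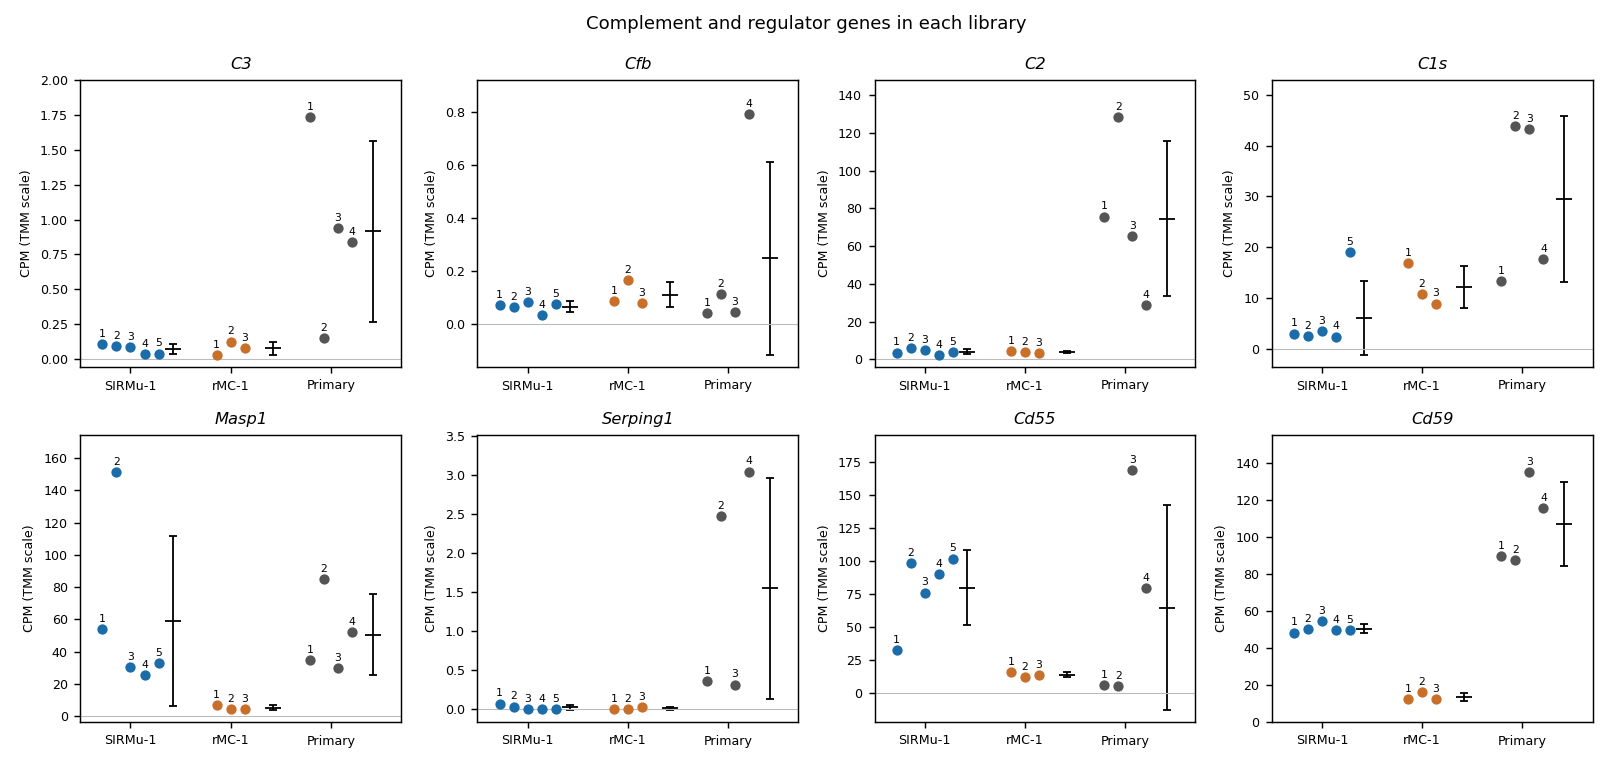
Level of each of the 8 genes in every library, in CPM on the TMM scale (vertical axes, linear, a separate range per gene); points are libraries labelled by replicate number, and the bar beside each group is the mean ± SD (n = 5 SIRMu-1, 3 rMC-1, 4 primary). C2 lies at 2.30 to 6.14 CPM in all 8 libraries of the lines and at 28.8 to 128 in primary cultures, while the Cd55 points of primary cultures fall into a low and a high pair.

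**Figure D2:**
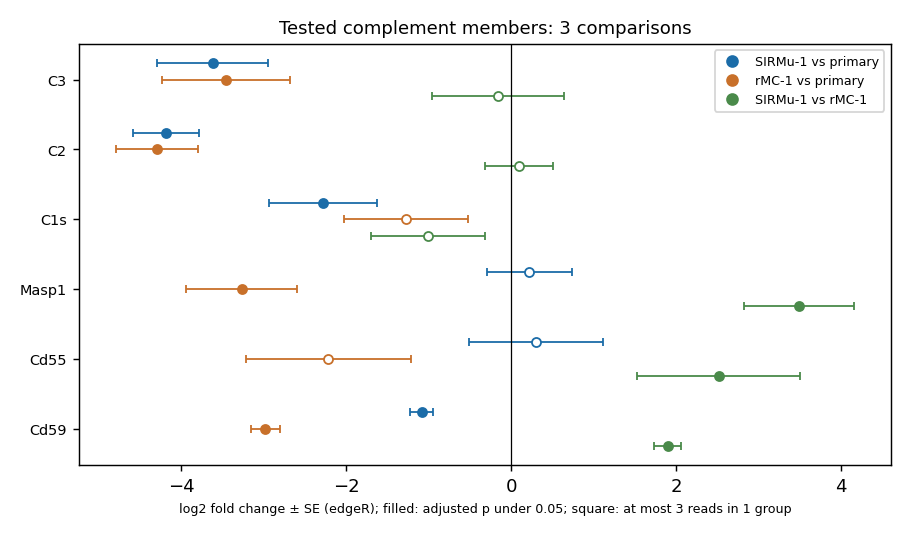
Log2 fold change ± SE (horizontal axis) of the 6 tested genes in SIRMu-1 against primary, rMC-1 against primary and SIRMu-1 against rMC-1; filled symbols have an edgeR adjusted p under 0.05. C2 lies near −4 against primary cultures for both lines, and Masp1 near 0 for SIRMu-1 and at −3.26 for rMC-1.

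Among the starting proteases, C1s, which cleaves C4 and C2, stood at 3.02, 2.45, 3.47, 2.44 and 19.1 CPM in SIRMu-1 replicates 1 to 5. It stood at 16.9, 10.8 and 8.93 CPM in rMC-1 and at 13.4, 43.8, 43.2 and 17.7 CPM in primary replicates 1 to 4. SIRMu-1 replicate 5, of passage 20, was inside the primary range and the other 4 SIRMu-1 libraries were below every primary and rMC-1 library. C1s fell by 2.28 ± 0.66 on the log2 scale in SIRMu-1 against primary cultures (edgeR adjusted p = 0.0142). The rMC-1 value was −1.28 ± 0.75 (edgeR adjusted p = 0.147; 95% interval −2.92 to 0.37). The SIRMu-1 call was lost when libraries that share a file-name code were summed (adjusted p = 0.0515) and when only the 2 SIRMu-1 libraries with both drugs were used (−1.39, adjusted p = 0.131). The rMC-1 call was gained without SIRMu-1 replicate 5 (−1.21, edgeR adjusted p = 0.0234), which changes the shared estimate of spread.

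Masp1, which encodes a protease of the lectin arm and, by splicing, its partner MASP-3, stood at 54.1, 151, 30.3, 25.6 and 32.9 CPM in SIRMu-1, at 6.95, 4.53 and 4.32 in rMC-1, and at 34.8, 85.2, 30.0 and 52.1 in primary cultures. All 3 rMC-1 libraries were below every other library, whereas SIRMu-1 spanned the primary range and exceeded it in replicate 2. The counts do not separate the transcripts of this gene. In rMC-1 Masp1 fell by 3.26 ± 0.67 on the log2 scale (edgeR adjusted p = 0.000993). The SIRMu-1 difference was 0.22 ± 0.52 (edgeR adjusted p = 0.75; 95% interval −0.91 to 1.35), and without SIRMu-1 replicate 2 it was −0.50.

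C2, the protease subunit of the classical and lectin convertase, had the largest called fold change of the 6 tested members in each line. It stood at 3.52, 6.14, 4.79, 2.30 and 3.71 CPM in SIRMu-1, at 4.53, 3.79 and 3.13 in rMC-1, and at 75.7, 128, 65.4 and 28.8 in primary cultures. Every primary library was above all 8 libraries of the lines. C2 was 18.2-fold lower in SIRMu-1 (log2 −4.19 ± 0.40, edgeR adjusted p = 1.96e-05) and 19.5-fold lower in rMC-1 (log2 −4.29 ± 0.50, edgeR adjusted p = 1.39e-05). Both calls held in all 23 and 22 alternatives.

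C3, the central component, had few reads in every group. Its reads numbered 3, 3, 2, 1 and 1 in SIRMu-1, 1, 6 and 3 in rMC-1, and 44, 4, 21 and 19 in primary cultures. That is at most 0.107 CPM in SIRMu-1, 0.124 in rMC-1 and 0.15 to 1.74 CPM in primary cultures. Primary replicate 2 was near the lines and the other 3 primary libraries were well above them. The fitted log2 fold change was −3.62 ± 0.67 in SIRMu-1 and −3.46 ± 0.78 in rMC-1, from 10, 10 and 88 reads in SIRMu-1, rMC-1 and primary cultures. Because C3 entered the test through the primary libraries, these values are a description. Cfb, the factor B gene of the alternative arm, was at or near the level of 3 reads almost throughout. It had 2, 2, 2, 1 and 2 reads in SIRMu-1, 3, 8 and 3 in rMC-1, and 1, 3, 1 and 18 in primary cultures. One library, primary replicate 4, held most of the primary reads, and no difference was detectable at this depth (without the filter, log2 −1.84 in SIRMu-1, edgeR adjusted p = 0.103, and −1.08 in rMC-1, adjusted p = 0.316).

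The bases before the C3 start are shown because C/EBP factors are known to act on this promoter. Cebpd, an acute-phase C/EBP gene, and Cebpb were among the upstream genes measured. The 250 bases before the start were read from RefSeq, build GRCr8, chr9:2201340-2201589, minus strand, written 5′ to 3′ with the match in capitals.
C3: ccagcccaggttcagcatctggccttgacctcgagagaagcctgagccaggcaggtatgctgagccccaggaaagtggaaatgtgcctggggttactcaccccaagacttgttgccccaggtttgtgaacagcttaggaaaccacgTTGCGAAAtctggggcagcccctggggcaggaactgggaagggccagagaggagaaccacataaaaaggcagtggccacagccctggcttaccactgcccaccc
The capitals mark a match to the C/EBP letters TTGCGNAA, beginning 104 bases before the start. These letters, on either strand, were in 0.729% of 33469 rat promoter windows of the same length. No match was found in it to the NF-kB motif (0.974% of windows), the STAT letters TTCNNNGAA (7.67%) or the interferon-stimulated response element (3.41%). A match is a description of the letters, and the motifs were chosen after the sequence had been seen. Cebpd itself averaged 7.57 ± 1.27 CPM in SIRMu-1, 7.2 ± 3.2 in rMC-1 and 20.1 ± 8.10 in primary cultures (SD, n = 5, 3 and 4). It fell by 1.41 ± 0.29 in SIRMu-1 (edgeR adjusted p = 0.00208) and by 1.49 ± 0.34 in rMC-1 (edgeR adjusted p = 0.00196) on the log2 scale. Cebpb, the other C/EBP gene of the upstream list, averaged 30.3 CPM in SIRMu-1, 72.8 in rMC-1 and 41.9 in primary cultures. Against primary cultures Cebpb was called higher in rMC-1 and was not past the threshold in SIRMu-1. A part of either gene in the C3 levels was not tested.

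Serping1, the gene of C1 inhibitor, was almost absent from both lines. Its reads numbered 2, 1, 0, 0 and 0 in SIRMu-1, 0, 0 and 1 in rMC-1, and 9, 66, 7 and 69 in primary cultures. Primary replicates 2 and 4 held 66 and 69 of the 151 primary reads, and the lowest primary library still had more reads than any library of the lines. Scaled for library size, the SIRMu-1 sum was 0.0137 of the primary sum (95% counting interval 0.00279 to 0.0407) and the rMC-1 sum 0.00529 (0.000133 to 0.0299). Serping1 missed the filter of the main test. Without that filter it was lower in SIRMu-1 (edgeR adjusted p = 0.000875) and in rMC-1 (edgeR adjusted p = 0.000797).

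Cd59, the membrane inhibitor of the terminal pore, was the steadiest member within groups. It stood at 48.4, 50.4, 54.8, 49.6 and 49.8 CPM in SIRMu-1, at 12.3, 16.1 and 12.3 in rMC-1, and at 89.7, 87.8, 135 and 116 in primary cultures. The 3 groups did not overlap and lay in the order primary cultures, SIRMu-1, rMC-1. Cd59 fell by 1.08 ± 0.14 in SIRMu-1 (edgeR adjusted p = 0.000109) and by 2.98 ± 0.18 in rMC-1 (edgeR adjusted p = 1.24e-07), both on the log2 scale against primary cultures. These calls were kept in every alternative tried.

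Cd55, the decay-accelerating factor, varied most within primary cultures among the tested members. It stood at 32.3, 98.2, 76.0, 90.0 and 102 CPM in SIRMu-1 and at 16.0, 11.9 and 13.9 CPM in rMC-1. In primary replicates 1 and 2, of passage 4, it stood at 6.11 and 5.16 CPM, and in replicates 3 and 4, of passage 3, at 168 and 79.3 CPM. The lower of the passage 3 values was 13.0 times the higher of the passage 4 values, and 0.132% of tested genes had a ratio at least this high between these pairs. The other members' ratios of the passage 3 to the passage 4 mean were 0.462 to 1.42 for the tested ones, against 21.97 for Cd55. Replicates 1 and 2 also share a file-name code, so passage and code cannot be told apart, and the difference was not tested.

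Against all 4 primary libraries, the Cd55 log2 difference was 0.30 ± 0.81 in SIRMu-1 (edgeR adjusted p = 0.784; 95% interval −1.48 to 2.08) and −2.22 ± 1.00 in rMC-1 (edgeR adjusted p = 0.0643), neither past the threshold. Against the passage 3 pair alone, the log2 difference was −0.64 in SIRMu-1 and −3.15 in rMC-1. Against the passage 4 pair alone, it was 3.82 in SIRMu-1 and 1.30 in rMC-1. This split was made after the primary values were seen, so its values restate the levels of each pair and are given with no test. The rMC-1 difference against primary cultures stayed not past the threshold, in the same direction, in 17 of 22 alternatives (edgeR adjusted p up to 0.466). It was past the threshold with DESeq2 (adjusted p = 0.036), without primary replicate 1 (edgeR adjusted p = 0.0205) and without primary replicate 2 (0.0173). Replicates 1 and 2 are the low pair. Without primary replicate 3, of the high pair, the log2 difference was −1.12.

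The Cd55 promoter window is shown because this gene separated the primary pairs. It was read from RefSeq, build GRCr8, chr13:44438102-44438351, minus strand, 250 bases before the start, 5′ to 3′.
Cd55: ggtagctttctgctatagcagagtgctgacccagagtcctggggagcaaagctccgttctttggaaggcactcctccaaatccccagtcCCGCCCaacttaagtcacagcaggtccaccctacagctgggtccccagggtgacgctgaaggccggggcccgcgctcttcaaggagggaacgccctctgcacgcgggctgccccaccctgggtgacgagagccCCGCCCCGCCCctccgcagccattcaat
The capitals mark 3 matches, 2 of them overlapping, to the Sp1 letters GGGCGG on the opposite strand, which read CCGCCC here. These letters were in 30.5% of the windows. None of the C/EBP, NF-kB, STAT or interferon response motifs searched above was in this window. A RefSeq window under the same gene symbol was found for 3 of the 8 members (C3, Cd55 and Masp1). The Masp1 window held no match to any motif searched, Sp1 included.

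The lines were then set against each other. SIRMu-1 was higher than rMC-1 for Masp1, Cd59 and Cd55, and no tested member was called lower; 3 of 6 were called, where 63.2% of all tested genes were called (32.7% higher). Masp1 was 11.2-fold higher in SIRMu-1 (log2 3.48 ± 0.67, edgeR adjusted p = 0.000751), and the lowest SIRMu-1 library, at 25.6 CPM, was above the highest rMC-1 library, at 6.95 CPM. Cd59 was 3.73-fold higher (log2 1.90 ± 0.16, edgeR adjusted p = 2.24e-06). Cd55 was 5.71-fold higher (log2 2.51 ± 0.99, edgeR adjusted p = 0.0425) but the call was lost in 11 of 21 alternatives. Over these edgeR and DESeq2 alternatives the adjusted p ran from 0.000303 to 0.145. The main test shares its estimate of spread with the primary libraries, where Cd55 ran from 5.16 to 168.5 CPM. For these 3 genes the libraries of the lines did not overlap (63% of all tested genes). The lost calls included the fit without any 1 of the 3 rMC-1 libraries or of SIRMu-1 replicates 2 to 5.

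C3, C2 and C1s did not differ past the threshold between the lines. The log2 differences were −0.16 ± 0.80 for C3 (95% interval −1.90 to 1.59), 0.10 ± 0.41 for C2 (−0.80 to 1.00) and −1.004 ± 0.689 for C1s (−2.51 to 0.50), with edgeR adjusted p = 0.881, 0.851 and 0.224. For C1s the value depended on SIRMu-1 replicate 5. Without that library C1s was −2.19 (edgeR adjusted p = 0.000969), and with only the 3 SIRMu-1 libraries without drugs it was −2.21 (edgeR adjusted p = 0.0107).

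The drugs gave no called member within SIRMu-1, where 0% of tested genes were called by edgeR. Unadjusted, 433 of 11321 genes were under 0.05, and DESeq2 called 3. C1s was the 1 tested member whose libraries with and without drugs did not overlap (16% of all tested genes). It averaged 11.3 CPM in the 2 libraries with drugs and 2.64 in the 3 without (log2 2.10 ± 0.67, unadjusted p = 0.00987, edgeR adjusted p = 0.977). Replicate 3, with drugs, stood at 3.47 CPM beside 2.44 to 3.02 without, and replicate 5, with drugs, at 19.1. Passage 20 occurs only in replicate 5, so its drugs and passage cannot be told apart. Masp1 averaged lower with drugs (log2 −1.28 ± 0.66, edgeR adjusted p = 0.977). The log2 difference of Cd59 was 0.08 ± 0.19, with a 95% interval of −0.35 to 0.51.

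The rest of the complement list had 52 genes with the members, of which 48 were in the tables and 13 beside the members were tested. Of these 13, SIRMu-1 was lower than primary cultures for 6 and higher for 0 (24.4% and 21.7% of all tested genes), with a median log2 fold change of −2.02. In rMC-1, 6 were lower and 3 higher (38.9% and 31.9% of all tested genes), with a median of −1.03. Against rMC-1, SIRMu-1 was higher for 2 and lower for 5 (32.7% and 30.5% of all tested genes). Of the 13, 4 (Colec12, Csmd1, Cd93 and Colec10) entered the test only through primary libraries and 1 (C5ar2) only through rMC-1. These counts and medians are therefore a description and not support.

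**Figure D3:**
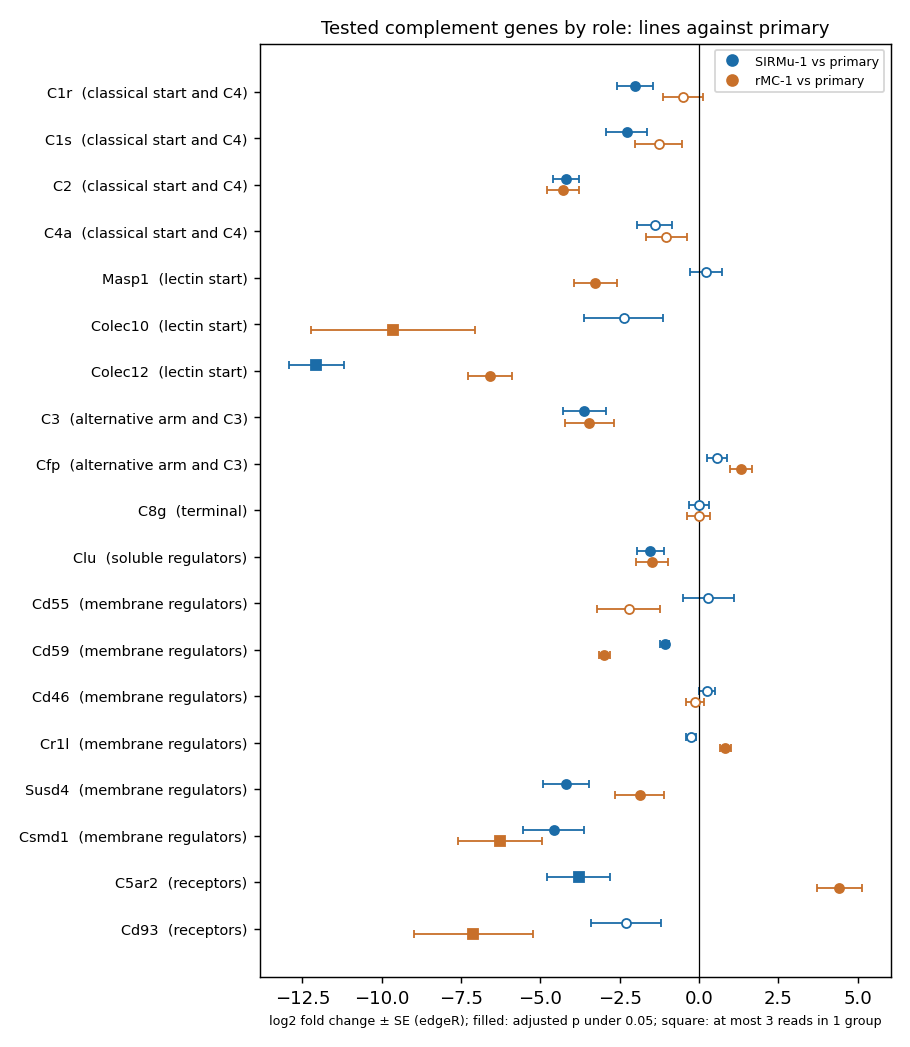
Log2 fold change ± SE (horizontal axis) of 19 tested complement genes in SIRMu-1 and in rMC-1, each against primary cultures, with each gene's role in brackets; filled symbols have an edgeR adjusted p under 0.05, and squares mark genes with at most 3 reads in 1 group, whose fitted values depend on the prior count. Points left of 0 are lower in the line; the filled points right of 0 are Cfp, Cr1l and C5ar2 in rMC-1.

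C1r, the protease that activates C1s and lies beside it in the rat genome, stood at 31.5, 11.9, 22.9, 32.7 and 92.8 CPM in SIRMu-1. It stood at 123, 114 and 94.8 CPM in rMC-1 and at 129, 321, 65.0 and 108 CPM in primary cultures. As for C1s, SIRMu-1 replicate 5 was the highest of its group, within the primary range, and the other 4 were below every primary and rMC-1 library. C1r fell by 2.02 ± 0.56 on the log2 scale in SIRMu-1 (edgeR adjusted p = 0.0116). This call was lost with file-name codes summed (−1.68, edgeR adjusted p = 0.102) and with only drug-treated SIRMu-1 (−1.43, 0.14). It was also lost against the passage 3 primary pair (−1.17, 0.151), a split chosen after the data were seen. The rMC-1 value was −0.50 ± 0.63 (edgeR adjusted p = 0.495). Over the 12 libraries the Pearson correlation of log2 CPM of C1s with C1r was 0.83, a description over libraries that share groups.

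**Figure D4:**
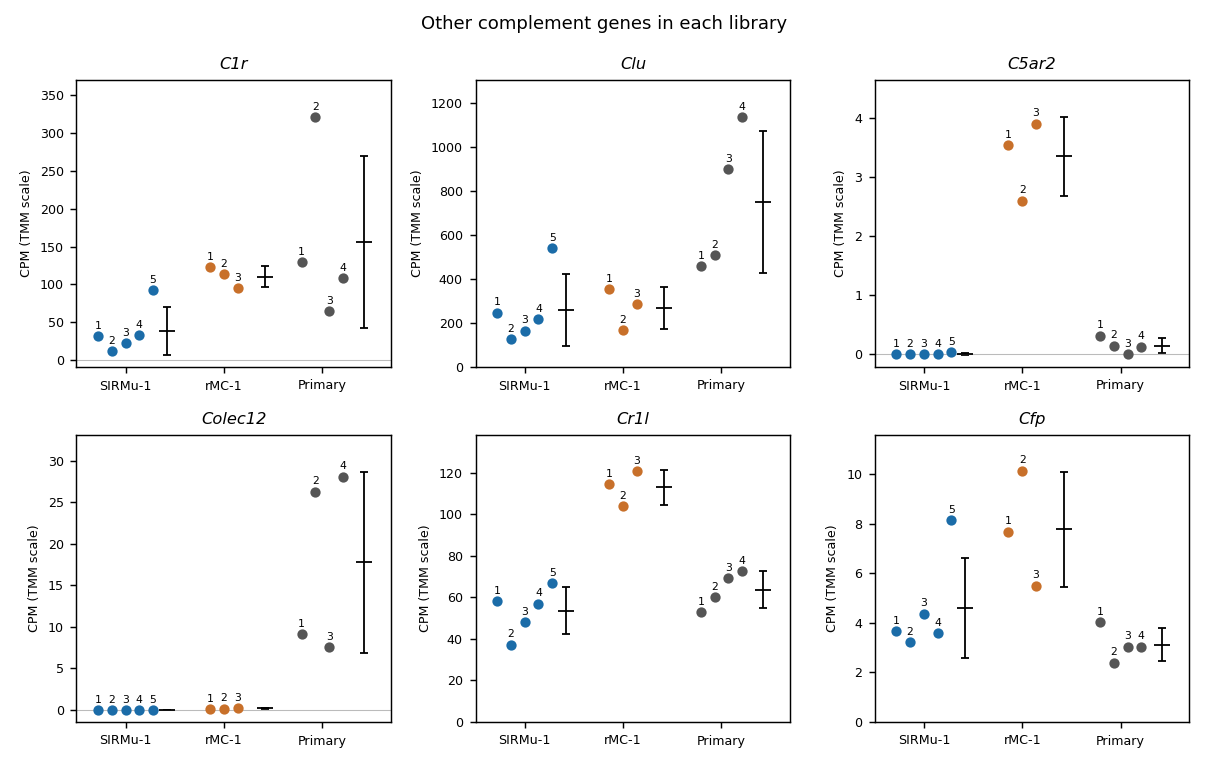
Level in every library (CPM on the TMM scale, linear vertical axes) of 6 complement genes outside the 8, with replicate numbers at the points and mean ± SD beside each group (n = 5 SIRMu-1, 3 rMC-1, 4 primary). Colec12 lies at or near 0 in both lines and above 7 CPM in every primary library, and Cr1l and C5ar2 are highest in rMC-1.

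Of 9 soluble regulators measured, Clu was the 1 that was tested, and it was lower in both lines. Clusterin (Clu), an inhibitor of the terminal pore and a chaperone, averaged 258 ± 163 CPM in SIRMu-1, 268 ± 95.0 in rMC-1 and 749 ± 324 in primary cultures (SD, n = 5, 3 and 4). It fell by 1.54 ± 0.43 in SIRMu-1 (edgeR adjusted p = 0.0117) and by 1.48 ± 0.50 in rMC-1 (edgeR adjusted p = 0.0199) on the log2 scale. The Clu calls did not hold throughout. The rMC-1 call was lost without primary replicate 4 (edgeR adjusted p = 0.0511), without rMC-1 replicate 2 (0.0987) and without rMC-1 replicate 3 (0.0603). It was also lost with library totals (0.101). Against the passage 4 primary pair, a split chosen after the data were seen, the values were 0.148 in SIRMu-1 and 0.169 in rMC-1. With only drug-treated SIRMu-1 libraries, the SIRMu-1 call was lost (0.143).

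Membrane regulators moved unequally. Cr1l, the rodent gene of Crry, which limits C3 and C4 deposition on cells, averaged 53.5 ± 11.3 CPM in SIRMu-1, 113 ± 8.41 in rMC-1 and 63.7 ± 8.94 in primary cultures (SD, n = 5, 3 and 4). Cr1l rose by 0.83 ± 0.18 in rMC-1 (edgeR adjusted p = 0.0014), and the SIRMu-1 value was −0.25 ± 0.16 (edgeR adjusted p = 0.214). In SIRMu-1 against rMC-1 it was −1.08 ± 0.17 (edgeR adjusted p = 0.000176), the opposite direction to Cd59. Cd46, a cofactor for cleavage of C3b and C4b, did not pass the threshold in either line (0.26 ± 0.25 in SIRMu-1, edgeR adjusted p = 0.413; −0.13 ± 0.28 in rMC-1, adjusted p = 0.698). Susd4 and Csmd1, membrane proteins with complement control repeats, were lower in both lines, with few reads, and Csmd1 entered the test only through primary libraries. Their reads summed to 23, 102 and 316 for Susd4 and to 5, 1 and 89 for Csmd1 in SIRMu-1, rMC-1 and primary cultures. The rMC-1 call of Susd4 (edgeR adjusted p = 0.044) was lost in 13 of 22 alternatives.

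Of the other tested genes, Colec12, a scavenger receptor with a collectin domain, had 0 reads in all SIRMu-1 libraries, 22 in rMC-1 and 1741 in primary cultures. Its level was at least 844-fold lower in SIRMu-1 than in primary cultures, with 3 reads over the group as the floor, and the fitted log2 value in rMC-1 was −6.58 ± 0.70. Properdin (Cfp), which stabilizes the alternative convertase, averaged 4.60 ± 2.04 CPM in SIRMu-1, 7.78 ± 2.33 in rMC-1 and 3.13 ± 0.67 in primary cultures (SD, n = 5, 3 and 4). It rose by 1.32 ± 0.35 on the log2 scale in rMC-1 (edgeR adjusted p = 0.00494). The C5a receptor gene C5ar2 had 1 read in SIRMu-1, 398 in rMC-1 and 15 in primary cultures, with a fitted log2 value of 4.42 ± 0.71 in rMC-1 against primary cultures. Colec10 and Cd93 had 0 and 2 reads in rMC-1 against 348 and 275 in primary cultures. For Colec12, Colec10, Cd93 and C5ar2 the group with the high level alone brought the gene into the test, so these differences are a description. C4a and C8g were past the threshold in neither line.

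The C1q genes, which are known microglial products in the retina, had 0 reads in all SIRMu-1 and rMC-1 libraries. C1qa, C1qb and C1qc had 39, 15 and 4 reads in primary replicate 1 and 4, 2 and 3 in replicate 2, with 0 in replicates 3 and 4. Of the 11 microglial markers, Tyrobp had 72, 15, 2 and 2 reads, Ptprc 24, 6, 0 and 0, and Trem2 36, 1, 0 and 0 in primary replicates 1 to 4. Csf1r had 103, 57, 48 and 93 reads, Cd68 110, 27, 33 and 50, and Tmem119 10637, 8363, 6409 and 4874 in the same order. These 3 thus had reads in all 4 primary libraries, while Ptprc, Trem2 and the C1q genes had 0 in replicates 3 and 4. The lines, without C1q reads, had reads of these 3 as well. In SIRMu-1, rMC-1 and primary cultures Csf1r averaged 1.06, 0.21 and 3.11 CPM and Cd68 0.81, 2.77 and 2.26. Tmem119 averaged 184, 0.163 and 308 CPM in the same order, so reads of these 3 alone do not mark microglial RNA here. C3 had 44, 4, 21 and 19 reads in these libraries, and the part of microglial RNA in them was not tested.

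Genes upstream of complement expression were 21 in the list, and all were tested. In SIRMu-1 2 were higher and 9 lower than in primary cultures (21.7% and 24.4% of all tested genes), with a median log2 fold change of −0.57. Of these calls, that of Ifngr2, an interferon gamma receptor subunit, was lost in 12 of 23 alternatives and that of Il6 in 13 of 23. The other higher gene, Rela, averaged 132, 124 and 70.2 CPM in SIRMu-1, rMC-1 and primary cultures. Its higher calls held in all 23 alternatives for SIRMu-1 and all 22 for rMC-1. In rMC-1 7 were higher and 8 lower, with a median of −0.28 (31.9% and 38.9% of all tested genes were called higher and lower). The 7 were Stat3, Irf1, Rela, Cebpb, Jak2, Il6r and Socs3, and the Irf1 call was lost in 7 of 22 alternatives. Osmr, a receptor subunit for oncostatin M, fell by 3.60 ± 0.33 in SIRMu-1 (edgeR adjusted p = 1.54e-05), and its rMC-1 value was −0.20 ± 0.35 (edgeR adjusted p = 0.624). Il1r1, the interleukin-1 receptor, fell by 3.42 ± 0.17 in rMC-1 (edgeR adjusted p = 4.71e-08) and by 0.60 ± 0.13 in SIRMu-1 (edgeR adjusted p = 0.00343). Il6, the cytokine gene, had 14 reads in rMC-1 and 4100 in primary cultures, and fell by 8.56 ± 1.22 on the log2 scale (edgeR adjusted p = 6.93e-05). Cebpb rose by 0.80 ± 0.25 in rMC-1 (edgeR adjusted p = 0.0145) while Cebpd was lower, as given above. Between the lines, Osmr was lower in SIRMu-1 than in rMC-1 by a log2 difference of −3.40 ± 0.34 (edgeR adjusted p = 6.76e-06), and Jak2, a kinase of these receptors, by −2.33 ± 0.23 (edgeR adjusted p = 6.46e-06).

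Over the 12 libraries, the tested gene most like each member in log2 CPM was Satb1 for C3 (Pearson r = 0.96), LOC100125362 for C2 (0.98), Nf2 for C1s (0.96), Gpr27 for Cd55 (0.90), Tmem192 for Cd59 (0.996) and Raph1 for Masp1 (0.97). C1rl, a C1r-like gene, was also among the 3 most alike for C1s (0.94). Among the members, the highest values were 0.78 for C3 with C2 and 0.78 for Cd59 with Masp1, and Cd55 with Cd59 had 0.35. These values describe 12 libraries in 3 groups, so a difference between groups raises them.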

How the data were processed

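Libraries were made from polyadenylated RNA with a stranded KAPA kit, per the labels. The submitters' processing notes name the tools STAR 2.5.3a, cutadapt 1.8.1 and edgeR 3.18.1, and genome rn6. Annotation and strandedness of the counts are not given here by any source, so overlapping antisense genes cannot be separated. The authors deposited whole-number read counts for 17315 genes, 1 table per library. The 12 columns of the authors' deposited log2 CPM table were not used. Reads in no gene stayed out of library sizes: 24.2% to 30.3% outside genes, 9.47% to 12.3% mapping to several places, 0.152% to 0.193% ambiguous and 1.84% to 2.54% unmapped.

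Samples were grouped by their labels. The test was edgeR 4.0.16 under R 4.3.3 (quasi-likelihood test, TMM scaling, filterByExpr with a minimum count of 10, all 12 libraries in a model of 3 group means with 9 residual degrees of freedom), with Benjamini-Hochberg adjustment over 11321 genes and calls at 0.05. The drug comparison used 4 groups (8 residual degrees of freedom). DESeq2 1.42.0 was an alternative, beside scaling, filter, samples, replicate block and left-out libraries. CPM values are on the TMM scale, and 95% counting intervals are exact and cover counting error only. On simulated counts for SIRMu-1 against primary (11172 genes), 88% of genes lowered 4-fold, 48% of genes lowered 2-fold and 68% of genes raised 2-fold were called, and 0.0911% of unchanged genes. The simulation changed only 50 genes at each fold and left 10972 unchanged, whereas 46.1% of genes were called in the data. The adjustment for many genes therefore differed, and these rates do not carry over to the data.

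The text names all 8 members, and other complement and upstream genes of fixed lists that passed the filter, plus the most alike tested gene. Genes of the lists below the filter that are named (C1q, microglial genes) were chosen after their values were seen. Some listed genes are not reported here. The members and lists were chosen with earlier results of these data known. The labels call the samples biological replicates without tying them to animals, and libraries share file-name codes, so p-values reflect only how these libraries vary, and that variation may be technical. Summed by code, the libraries form 2 SIRMu-1, 2 rMC-1 and 3 primary samples. Genes called then numbered 3173 in SIRMu-1 against primary, 7649 in rMC-1 against primary and 5733 between the lines. With all 12 libraries they numbered 5220, 8017 and 7157. No pair of libraries of a group was a duplicate (chi-square per gene at least 23.3 over 19 pairs). Promoter windows are from RefSeq GRCr8, whose gene table lists Cd59 as a synonym.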

Additional observations from a re-analysis of the deposited data

Results flagged for a closer look

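Of 38 gene and group combinations in SIRMu-1 and primary cultures, 10 had 1 library far from the others of its group, by a gap to the nearest library that exceeded the 95% limit for the group's range. The rMC-1 libraries were not examined in this way. Colec12 in SIRMu-1 is counted in the 38 but, with 0 reads throughout, could not be flagged. For normally distributed values chance flags about 1 in 20 groups. CPM values on few reads need not be so distributed, so the chance rate here is not known. The causes were not tested.

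SIRMu-1 replicate 5, of passage 20 and with both drugs, was the high library for 6 genes. C1s stood there at 19.07 CPM beside 2.44 to 3.47 in the other 4 SIRMu-1 libraries, C1r at 92.83 CPM beside 11.9 to 32.7, and Cfp at 8.167 CPM beside 3.21 to 4.38. Colec10 stood at 2.472 CPM beside 0.0658 to 0.283, and Cd93 at 2.547 CPM beside 0 to 0.132. C5ar2 at 0.03746 CPM rests on 1 read beside 0 in the other 4.

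Masp1 stood at 151.3 CPM in SIRMu-1 replicate 2, of passage 11 without drugs, beside 25.6 to 54.1 in the other SIRMu-1 libraries. Among primary cultures, C4a stood at 5.2 CPM in replicate 4 beside 0.592 to 1.20, Colec10 at 11.26 CPM in replicate 2 beside 0.447 to 1.10, and Cd46 at 1.814 CPM in replicate 1 beside 1.28 to 1.34.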

How the results depend on the processing

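The number of members called stayed within 1.5 times in every alternative run, at 3 to 5 without 1 library in SIRMu-1 and in rMC-1 against primary cultures, 2 to 3 between the lines and 0 for the drugs. The calls of C2 and Cd59 against primary cultures held in every alternative that tested them. Scaling by library totals moved the median of all genes in rMC-1 against primary to 0.32 (−0.15 with TMM) and between the lines to −0.40 (0.03 with TMM).

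Directions turned only for differences that were not called, except Tnfrsf1a and Ifngr1. With 1 library left out in turn, the log2 difference ran from the lowest to the highest value as follows. In SIRMu-1 against primary it was −0.0908 to 1.3999 for Cd55 and −0.5001 to 0.5931 for Masp1. Between the lines it was −0.5904 to 0.268 for C3 and −0.1214 to 0.2522 for C2. For the drugs it was −0.9777 to 0.0806 for C3, −0.1879 to 0.5445 for C2 and −0.0839 to 0.5378 for Cd55. Under other settings, Cd55 in SIRMu-1 was −0.0142 with file-name codes summed and −0.6371 against passage 3 primary libraries. Masp1 in SIRMu-1 was −0.6753 with only drug-treated libraries and −0.0275 against passage 4. In rMC-1 against primary, Cd55 was 1.3047 against passage 4, and Tnfrsf1a 0.0064 with library totals. With library totals, C2 between the lines was −0.3608 and Ifngr1 −0.1602. The causes were not tested. The passage 3 and passage 4 alternatives were chosen after seeing the data, and they are counted in the totals of alternatives against primary cultures.

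Replicate numbers do not pair the libraries: over 10 same-numbered pairs the correlation of deviations was −0.0626 to 0.0978, and 1 of 12 libraries correlated best with its own number. With the replicate block, 4, 5 and 3 members were called in the 3 comparisons between groups. C1s in rMC-1 against primary (−1.32, edgeR adjusted p = 0.0351) and between the lines (−1.98, 0.00702) gained a call, and Cd55 between the lines (1.99, 0.13) lost it. No paired analysis was possible for the drugs because the 2 groups share no replicate number.

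Depth limits C3, Cfb and Serping1, which had at most 8 reads in any library of the lines.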
